A study of Mus musculus with 16 samples.

Results

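The last recorded step of a chemical reprogramming course, from day 10 (D10) to day 12 (D12) of mouse embryonic fibroblasts in reprogramming medium, was compared by reduced representation bisulfite sequencing. The members were the 2 D10 and 2 D12 libraries, 4 of the 16 in the series, and every CpG site (chromosome, base and strand) that all 4 covered with at least 10 reads on the 19 autosomes. These were 1319762 of the 2652001 autosomal sites listed in any of the 4 libraries, or 49.8%. They were grouped into 1-kb tiles with at least 3 such sites, which gave 127716 tiles, against 92383 when all 16 libraries must cover each site. A tile held a median of 7 sites and 233 reads per library, with 58 and 1132 reads at the 5th and 95th percentiles. For each tile the questions were whether it still lost methylation over these 2 days, had already reached the lowest levels, or rose.

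Both groups started from fibroblasts of E13.5 embryos of the strain labelled 129XOG2, used at passages 1 to 3. OG2 mice carry a fluorescent reporter driven by regulatory sequence of Oct4, and no sorting on it is given for these samples. The cells were in the same reprogramming medium, which was replaced every 2 days and daily from day 4 to day 8, and the labels do not name its compounds. The D10 and D12 groups therefore differed in time alone as far as the labels go, and their cell type is given as reprogramming intermediate. The other groups, with 2 libraries each, were the fibroblasts (D0), D2, D4, D6 and D8, and induced pluripotent stem cells (iPSC) grown on feeder cells in a medium with LIF, CHIR99021 and PD0325901, and they serve here as reference levels. The labels do not say that the 2 libraries of a group came from separate cultures, so each p-value reflects the spread of these libraries only, and that spread may be technical.

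Methylation of cytosine in CpG pairs is copied to the new DNA strand after replication by DNMT1 with its partner UHRF1, is set anew by DNMT3A and DNMT3B, and is oxidised by the TET enzymes on the way to its removal. It can therefore be lost passively, by dividing without copying, or actively. CpG islands, the CpG-dense stretches at many promoters, are mostly unmethylated in fibroblasts and in pluripotent cells, while most other CpGs are methylated in both. RRBS cuts DNA with MspI and reads mostly CpG-rich fragments, in which bisulfite turns unmethylated cytosine into a base read as thymine.

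Depth was higher at D12. The D10 libraries listed 1850083 and 1776653 sites with 54079535 and 51857112 reads in sum, and the D12 libraries 2283610 and 2121880 sites with 76775447 and 66643255 reads. Median coverage per listed site was 20 and 20 reads at D10 and 23 and 21 at D12. The replicates of these late days also stood further apart than those of early days. The Pearson r of tile levels between replicates, a description across tiles, was 0.973 at D0, 0.827 at D10 and 0.677 at D12. It also depends on the SD of tile levels, which was 16.6 points at D10 and 13.2 at D12. The SD of the difference between replicates was 5.91 points at D0, 11.3 at D8, 9.50 at D10 and 9.64 at D12, so it was nearly equal on the last 2 days. The median chi-square between replicates per tile was 0.925 at D0, 2.78 at D8, 2.31 at D10, 3.32 at D12 and 1.13 in iPSCs.

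Methylation was lower at D12 than at D10. The mean level over the common sites was 25.8% and 26.3% in the D10 libraries and 20.4% and 20.2% in the D12 libraries. Both D12 libraries lay below both D10 libraries, and the group means were 26.1% ± 0.338 (SD, n = 2) and 20.3% ± 0.139 (SD, n = 2). The difference was -5.79 percentage points (SE 0.258), so D12 kept 77.8% of the D10 level. With 2 against 2 libraries the exact two-sided permutation test cannot go below p = 0.333, which is the value it gave. Per tile, the mean went from 27.4% to 20.3% and the median from 25.6% to 17.6%. In these bulk samples, fewer cells that carry methylation and a lower level in each cell cannot be told apart.

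The difference ran through most of the range of tile levels, and the lowest tiles did not move down. Tiles at 40% or more made up 20.9% and 21.9% in the D10 libraries and 9.01% and 8.48% in the D12 libraries. Tiles at 80% or more numbered 386 and 386 at D10 and 103 and 98 at D12. High methylation was thus rare at D10 and rarer at D12. The 95th percentile of tile levels went from 58.1% to 45.8% (D12 at 78.8% of D10) and the 25th from 15% to 10.5% (70.0%), whereas the 5th percentile was 3.22% at D10 and 3.47% at D12. Tiles under 10% went from 15.4% to 23% of all tiles, but tiles under 5% only from 7.50% to 8.05%. Single sites read as fully unmethylated became fewer, from 17.1% to 13.8% of the common sites. That share also depends on coverage, which was higher at D12. The tiles drew together: the SD of tile levels within a library was 16.5 and 16.6 points at D10 and 13.4 and 13.1 at D12.

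**Figure D1:**
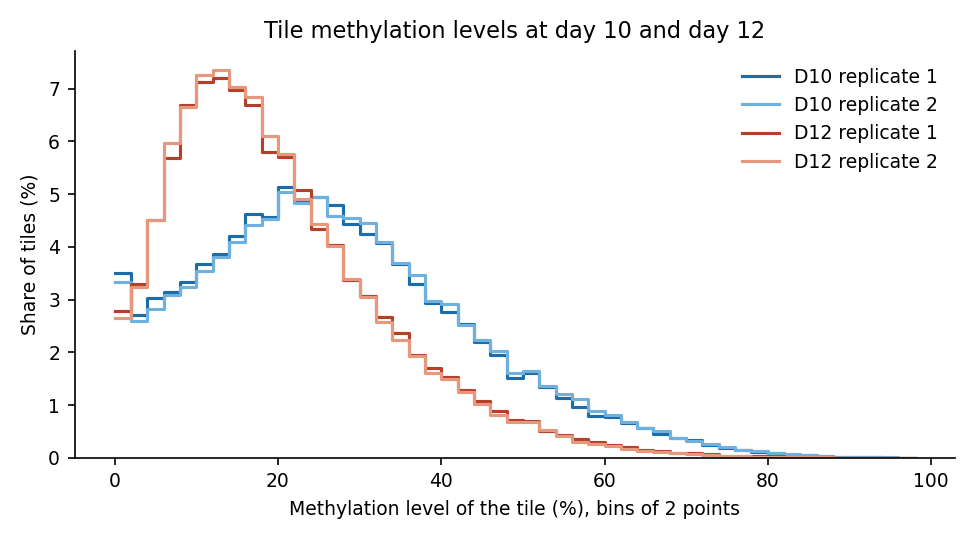
Share of the 127716 tiles (y axis, %) in each 2-point bin of methylation level (x axis, %), with a line for each of the 2 D10 and 2 D12 libraries. The D12 lines peak at lower levels and hold fewer tiles at 40% or more (9.01% and 8.48%) than the D10 lines (20.9% and 21.9%).

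Single tiles were tested on their methylated and unmethylated read counts with edgeR's quasi-likelihood test, with all 16 libraries in the fit, for the 109363 tiles that had reads in each of the 16. Calls needed an adjusted p (Benjamini-Hochberg) under 0.05 together with group means at least 10 points apart. By this rule 31292 tiles, 28.6% of those tested, fell, and 1365 tiles, 1.25%, rose. Among the tiles that fell, the drop was 20 points or more in 11292, 30 or more in 1761 and 50 or more in 27. Without a test, both D12 libraries lay below both D10 libraries in 64463 of all 127716 tiles (50.5%) and above them in 12068 (9.45%). The 18353 tiles outside the test went from 32.6% to 28%.

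These counts rest on the spread that all 8 groups share, which is smaller than that of D10 and D12 (common dispersion 0.0560 against 0.110 in edgeR). A fit of the 4 D10 and D12 libraries alone, with 2 residual degrees of freedom, called 0 tiles lower and 0 higher, with a smallest adjusted p of 0.140 in edgeR. At an unadjusted p under 0.05 and a difference of at least 10 points it had 27148 lower and 2308 higher tiles, so the excess of falls over rises was present there too. With D8 added, the counts were again 0 and 0 (smallest adjusted p 0.0823 in edgeR, 29891 lower and 2218 higher at an unadjusted p under 0.05), and with D6 and D8 they were 9930 (8.59% of the tiles tested) and 498 (0.431%). A quasi-binomial model on the 4 libraries called 12413 lower (9.72%), of which 11997 were also called with all 16 libraries, and 781 higher (0.612%), of which 467 were.

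A second reading without the shared spread took the tiles from replicate 1 and their values from replicate 2. The 51474 tiles with a level lower by 10 points or more in replicate 1 went from 35.3% to 22.6% in replicate 2, and 86.1% of them were lower there too, against 74.5% of all tiles that were lower in the mean of both replicates. With the replicates exchanged, 54355 tiles differed by -11.8 points and 84.3% kept the direction. Lower levels were thus seen in both replicates. For higher levels the size did not repeat. The 12501 tiles at least 10 points higher in replicate 1 were at 23.9% and 23.9% in replicate 2, with 51% in the same direction, and the exchange gave 1.32 points and 54.6%. Both shares exceed that of higher tiles in the whole set, since 74.5% of all tiles were lower. They are not like for like, because the shares are read in 1 replicate and the 74.5% in the mean of both. The chosen tiles also stood lower at D10 in the replicate read, at 23.9% and 22.7%, against a mean of 27.4% over all tiles.

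On average the tiles that fell were highly methylated in fibroblasts and in iPSCs. Their mean level was 72.9% at D0, 71.5% at D4, 61.7% at D6 and 45.1% at D8. It was 37.4% and 37.8% at D10 and 18.8% and 18.9% at D12, so D12 stood at 50.0% of the D10 level, values that follow from the choice of the tiles. In iPSCs the same tiles stood at 67.2%. By day 12, 3544, or 11.3%, were under 10% in both D12 libraries, against 13% of all tiles, while 11482, or 36.7%, still had a mean of 20% or more. The tiles that were not called had been lower before, with 52.5% at D0, 32.4% at D8, 22.3% at D10 and 18.9% at D12. The called and uncalled tiles, 37.6% and 22.3% at D10, had nearly the same level at D12. The call needs a fall of at least 10 points, so the choice shapes both the gap at D10 and the nearness at D12.

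**Figure D2:**
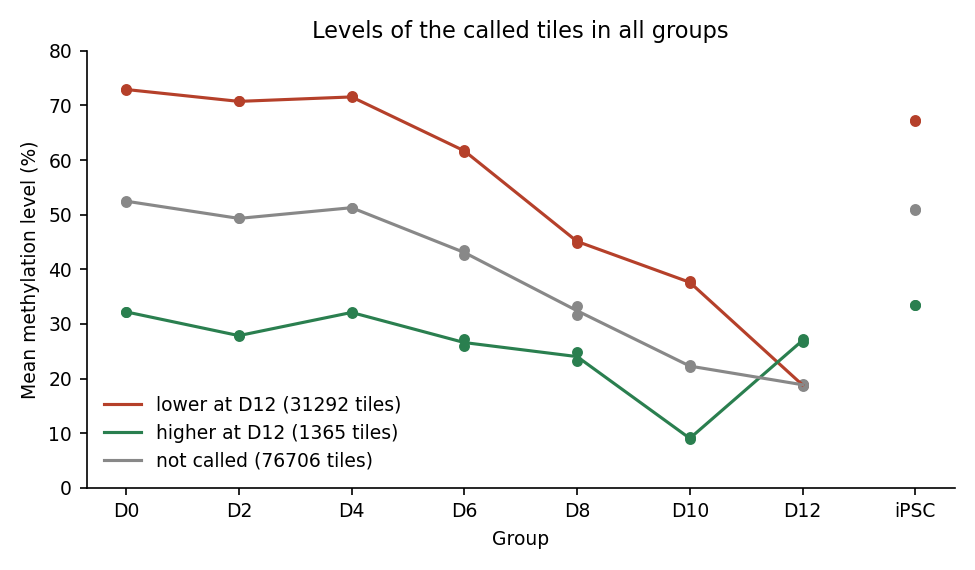
Mean methylation level (y axis, %) in each group (x axis, D0 to D12 and iPSC) of the tiles called lower (31292), called higher (1365) or not called (76706). Points are libraries and lines join the group means of D0 to D12. The called tiles were chosen by their D10 and D12 values, where the lower tiles go from 37.6% to 18.8%.

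The difference grew with the methylation that a tile still had at D8. Tiles were placed in classes by their D8 level, which takes no part in the comparison of D12 with D10. Tiles at 60 to 100% at D8 (11508 tiles) stood at 52.4% and 53% in the D10 libraries and 37.6% and 37.3% in the D12 libraries, a difference of -15.3 points (SE 0.330). Tiles at 40 to 60% (40991) went from 35.4% to 24.3%, those at 30 to 40% from 24.9% to 17.4%, and those at 20 to 30% from 18.3% to 14.2%. In points the difference thus grew with the level. As a proportion it varied less, since D12 kept 77.1%, 70.1%, 68.7% and 71% of the D10 level in the classes from 20 to 30% upward. The share of tested tiles called lower grew with the class, from 18.8% to 48.1%. In the classes below 20% the mean over all tiles of a class was no longer lower at D12. Tiles at 10 to 20% at D8 were at 11.2% and 11.5% in the D10 libraries and 12% and 11.9% in the D12 libraries. This class was mixed. Its 4038 tiles with 1 to 4 CpGs changed by -2.38 points, those with 5 to 9 by 0.249 and those with 20 or more by 3.61. Single sites at 10 to 20% at D8 changed by -1.86 points where the thinnest library had 60 or more reads. At 30 to 59 reads they changed by 0.431 points. The level of 20% at D8 was thus not a general limit.

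**Figure D3:**
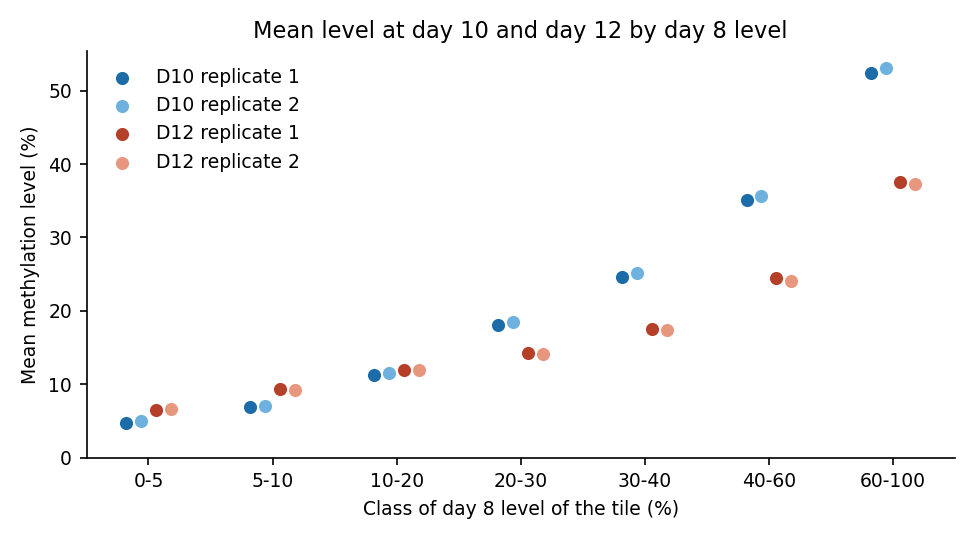
Mean methylation level (y axis, %) of the tiles in each class of D8 level (x axis, %), with a point for each D10 and D12 library. In the 4 classes from 20% upward both D12 points lie below both D10 points, by 15.3 points in the top class, and in the 3 classes under 20% both lie above.

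The tiles with the least methylation read slightly higher at D12 than at D10. Tiles under 5% at D8 (4182) had 4.73% and 5.06% in the D10 libraries and 6.54% and 6.68% in the D12 libraries, a difference of 1.71 points (SE 0.178). Tiles at 5 to 10% (5952) had 6.89% and 7.10% in the D10 libraries and 9.33% and 9.27% in the D12 libraries. In both classes each D12 library lay above each D10 library. Tiles under 10% in D10 replicate 1 (20074), read in the libraries that did not choose them, stood at 9.54% in D10 replicate 2 and at 10.6% and 10.6% at D12. Chosen in replicate 2 instead (19259), they were at 9.01% in D10 replicate 1 and at 10.5% and 10.4% at D12. Where sites had at least 20 reads, the tiles under 10% in D10 replicate 1 differed by 0.479 points, against 1.03 with at least 10 reads.

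By counts, the low group was being refilled from above and partly left. Under 10% in both libraries were 12639 tiles at D10 (9.90% of all tiles) and 16544 at D12 (13%). Of the D10 tiles 6628, or 52.4%, were again under 10% in both D12 libraries, and 2065 were at 10% or more in both. In the other direction 6260 tiles came from 10% or more in both D10 libraries to under 10% in both D12 libraries. Under the stricter limit of 5% in both libraries the group became smaller, from 4875 to 3998 tiles. In single libraries the share under 5% was not smaller, at 7.67% and 7.32% at D10 and 8.12% and 7.99% at D12. A count over both libraries also depends on how far the replicates agree, which was less at D12 by their correlation. Tiles near a limit can cross it by counting error, so these counts are given without a test.

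Tiles with little methylation in fibroblasts and in iPSCs were read on each day between. In 1632 tiles under 5% in each D0 and iPSC library, which took no D10 or D12 value, the mean was 2.25% and 2.08% at D0 and 1.86% and 1.86% in iPSCs, values that chose them. It was 4.96% and 4.93% at D4, 3.72% and 4.01% at D6 and 5.31% and 4.99% at D8. It was 3.90% and 3.96% at D10 and 5.69% and 5.62% at D12. The course went up and down between days, D12 was above D10 in both libraries, and the D12 libraries were the highest of the 16. Of these tiles 1597 were tested, 38 of them (2.38%) were called higher and 7 lower, against 1.25% and 28.6% of all tested tiles. In the tiles with 1000 or more reads in each library the levels were 3.50% and 3.89% at D10 and 5.06% and 5.04% at D12. Mitochondrial CpGs moved the same way. At the 15 mitochondrial sites in common the level was 5.24% (95% Wilson interval 5.12 to 5.36) and 5.26% (5.14 to 5.39) at D10, and 7.98% (7.82 to 8.14) and 7.78% (7.61 to 7.94) at D12. The intervals cover counting error only and take each read at each site as independent. The libraries hold no molecular identifiers, so copies of a molecule may be counted and the intervals may be too narrow. The part of incomplete bisulfite conversion in the small rise of the low tiles was not tested.

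The tiles that rose held more CpGs than those that fell, had little methylation at D10, and had a D12 mean near their D8 mean. Their mean was 8.90% and 9.21% at D10 and 27.3% and 26.7% at D12, which the choice of the tiles fixes. In groups that took no part in the choice it was 32.2% at D0, 32.1% at D4, 26.6% at D6, 24% at D8 and 33.5% in iPSCs, each nearer to the D12 than to the D10 value. The choice favours a low D10 value, so this nearness partly follows from it. Tiles that were not called also stood above their D10 mean of 22.3% in the other groups, at 52.5% at D0 and 32.4% at D8. Under 10% in both D10 libraries were 728 of the 1365, or 53.3%. The rise was 20 points or more in 404 and 30 or more in 78. The median tile that rose held 10 listed CpGs and 182 reads in its thinnest library, against 6 CpGs and 278 reads for tiles that fell. For comparison, the median was 12 CpGs in tiles at 0 to 5% in D10 replicate 1 and 7 in those at 5 to 10%. The 10 CpGs thus lay within the range of tiles that were low at D10. With at least 20 reads per site in place of 10, 651 tiles (0.884% of those tested) rose and 25370 (34.5%) fell.

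The densest tiles differed least between the days. Tiles with 1 to 4 CpGs listed in any library (46293) went from 25.9% to 18.2%, tiles with 5 to 9 (46634) from 29.9% to 21.7%, and tiles with 10 to 19 (23855) from 29.5% to 22.5%. Tiles with 20 or more (10934) had 18.1% and 18.5% in the D10 libraries and 17.7% and 17.8% in the D12 libraries. The densest class thus changed by -0.530 points (SE 0.217), far less than the others. In it 12.6% of the tested tiles fell and 3.36% rose, against 29.3% and 0.652% of tiles with 1 to 4 CpGs. Dense tiles started lower, at 26.5% at D0 against 61%. Within classes of D8 level the order still differed by class, but tiles of an equal D8 level had unlike D0 levels. Among tiles at 20 to 30% at D8, those with 1 to 4 CpGs went from 18.9% to 12.6% and those with 20 or more went from 17.3% to 20.9%. At D0 these had stood at 53.9% and 24.1%, so CpG count and earlier loss cannot be told apart there. At 60 to 100% at D8 the D0 levels were closer, 79.8% and 85.9%. Among tiles at 60 to 100% at D8 the order was the opposite, with a difference of -12 points for 1 to 4 CpGs and of -18.5 for 20 or more (919 tiles, 60.3% to 41.8%). The classes between had -8.42 points for 1 to 4 CpGs and 0.556 for 20 or more at 30 to 40% at D8, and -10.3 and -10.2 at 40 to 60%. Dense tiles thus differed more than sparse ones in the class of 60 to 100% alone of these 4.

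The size of the difference also moved with coverage. Sites whose thinnest library had 10 to 14 reads (414835 sites) went from 28.7% to 25.3%, and those with 60 or more (79225 sites) from 25.4% to 14.6%. The difference in between was -5.73 points at 15 to 29 reads and -8.00 at 30 to 59. At D10 the 4 classes lay between 23.7% and 28.7%, and at D12 they spread from 14.6% to 25.3%. The order was the same when coverage was taken from the iPSC libraries, which are in neither group: -3.76 points at 10 to 14 reads and -11.1 at 60 or more. It also held within classes of D8 level, though sites of an equal D8 level could differ at D0. At 20 to 30% at D8 the D0 mean was 32.3% at 10 to 14 reads and 62.2% at 60 or more. In the class of 60 to 100% it was 89.4% and 93.8%. Sites at 20 to 30% at D8 changed by 2.68 points at 10 to 14 reads and by -6.87 at 60 or more, and sites under 5% at D8 by 2.50 and 0.403. At the best covered sites the lowest class was thus nearly level, 2.72% and 2.76% at D10 and 3.15% and 3.14% at D12. Sites listed by only 1 of the 4 libraries were the most methylated, 42% and 44.7% in the D10 libraries and 48.3% and 48.5% in the D12 libraries. Over all sites that each library lists, the means were 28.2% and 28.6% at D10 and 27.8% and 26.5% at D12, so the size of the difference depends on comparing the same sites. What sets this dependence was not tested.

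**Figure D4:**
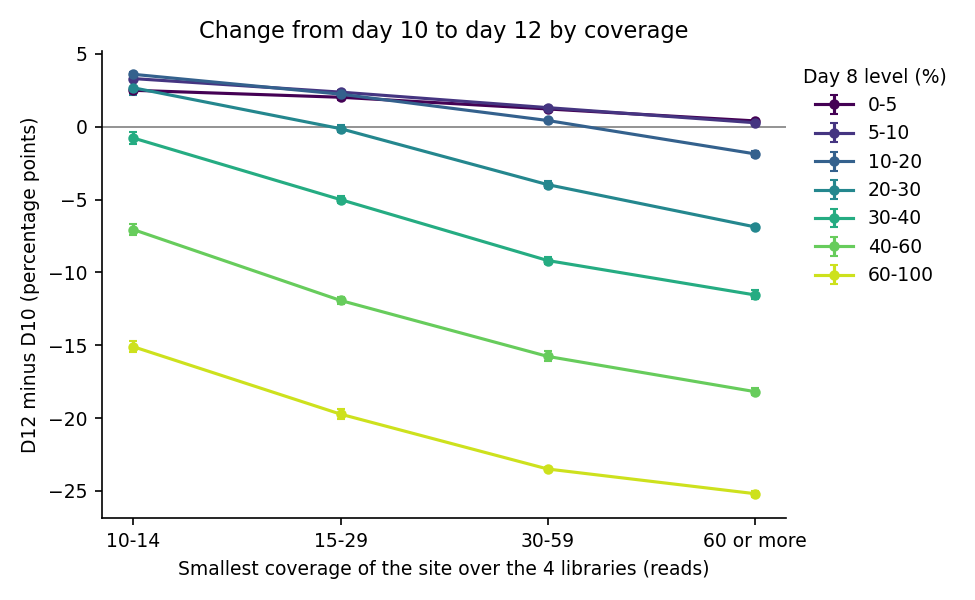
Difference in mean site level between D12 and D10 (y axis, percentage points, bars are the SE over 2 libraries a group) against the smallest coverage of the site over the 4 libraries (x axis, reads), with a line for each class of D8 level. In each class the difference moves downward with coverage, from -15.1 to -25.2 points in the top class.

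Lower levels were spread over the genome. The mean of the tiles was lower on each of the 19 autosomes, with a mean difference from -5.29 points on chromosome 11 to -8.33 on chromosome 3. Of 2089 windows of 1 Mb with at least 20 tiles, 2088 had a lower mean at D12, and the median difference was -7.88 points. The largest difference was on chromosome 3, 48000001 to 49000000, from 43.5% to 23.8% over 20 tiles. The window that was higher, by 2.33 points, was on chromosome 8, 72000001 to 73000000, and went from 16.3% to 18.7% over 69 tiles. On the sex chromosomes, left out of the tiles, the common sites had 33.8% and 33.9% at D10 and 23% and 23% at D12 on X, and 38.9% and 26.5% on Y.

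Neighbouring tiles moved together. Among 19278 pairs of tested tiles that touch, 22.6% of the following tiles were called lower, and 47.6% where the tile before was. For tiles called higher these shares were 1.75% and 10.3%. Neighbours share fragments and libraries, so this is a description. The longest run of tiles called lower spanned 5 tiles and 153 sites on chromosome 15, 76059001 to 76064000. It stood at 92.5% at D0 and 80.9% at D8, at 78.1% and 78.3% at D10, at 52.6% and 51.6% at D12 and at 65.4% in iPSCs. It had thus held most of its fibroblast methylation to D10. In all 97 runs of 3 or more tiles were called lower and 0 were called higher. Of 33 runs of 2 tiles that rose, that of the largest rise was on chromosome 10, 75608001 to 75610000, with 15.2% and 14.2% at D10 and 40.9% and 52.3% at D12.

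The 8 called tiles of largest decrease, among tested tiles with at least 5 sites and 100 reads in each of the 4 libraries and no overlap between groups, were highly methylated at D10 and had D12 means of 3.32% to 20.9%. The choice by size of the decrease needs a high D10 value and favours a low D12 value. The largest was on chromosome 12, 44842001 to 44843000, with 68% and 57.4% at D10 and 1.44% and 5.20% at D12, over 13 sites and at least 209 reads (adjusted p = 0.000839, edgeR). At D0 it stood at 91.3% and at D8 at 61.3%, so its mean was no lower at D10 than at D8, which the choice favours. A tile on chromosome 2, 21145001 to 21146000, had 76.6% and 81.1% at D10 and 13.1% and 28.8% at D12. It was at 75.7% at D8, and its D12 libraries differed from each other more than its D10 libraries did. A tile on chromosome 3, 120619001 to 120620000, had 75.1% and 54.5% at D10 and 9.31% and 9.47% at D12. Both D12 libraries of this tile were low and close together. A tile on chromosome 14, 73153001 to 73154000, had 67.5% and 57.1% at D10 and 12% and 6.64% at D12, and the tile on chromosome 10, 19110001 to 19111000, had 71.4% and 63.8% at D10 and 16.3% and 14.1% at D12. The other 3, on chromosomes 6, 9 and 5, fell by 50.9 to 52.4 points. The adjusted p of the 8 lay between 0.000777 and 0.00310 in edgeR with all 16 libraries, and none was called in edgeR on D10 and D12 alone or with D8 added.

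The iPSC level set these tiles apart from each other. The tiles on chromosomes 12, 3 and 14 were at 21.9%, 5.90% and 11.1% in iPSCs, so they were low there too, whereas those on chromosomes 2, 10, 9 and 5 were at 85.7%, 86%, 85% and 75%. The tile on chromosome 6 lay between, at 52.5%. All 8 had been at 78.3% or more at D0. The tiles are given by position on GRCm39, and which genes lie there was not looked up.

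The 8 called tiles of largest increase, by the same rule, had 107 to 389 reads in their thinnest library. The choice by size of the increase favours a low D10 and a high D12 value. The largest was on chromosome 6, 49240001 to 49241000, with 3.23% and 5.26% at D10 and 50.3% and 64.1% at D12, over 9 sites (adjusted p = 0.00461, edgeR). Its earlier levels were 7.97% at D0 and 27.6% at D8, and iPSCs had 0.658%, so the D12 mean was above that of each other group as read. Libraries of the other groups are read at those of a tile's sites that they list. Fewer than 3 of these 9 were listed by all 16 libraries, so the groups may not be read at the same sites. A tile on chromosome 1, 177269001 to 177270000, had 1.79% and 0% at D10 and 30.0% and 61.3% at D12. Its D12 libraries lay far apart, and at D8 it was at 47.5%, above its D12 mean. A tile on chromosome 4, 152093001 to 152094000, had 37% and 23.4% at D10 and 76% and 66.3% at D12, over 33 sites. It had 39.6% at D0 and 12.6% in iPSCs, both below each D12 library. The other 5, on chromosomes 19, 18, 15, 4 and 10, rose by 36.3 to 39.8 points. The adjusted p of the 8 lay between 0.00218 and 0.0153 in edgeR. These calls were less stable than the decreases: 1 of the 8 still had 3 sites when each site needed 20 reads or listing in all 16 libraries, 3 lost the call without D10 replicate 2 and 3 without D12 replicate 2, and none was called in edgeR on D10 and D12 alone or with D8 added.

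**Figure D5:**
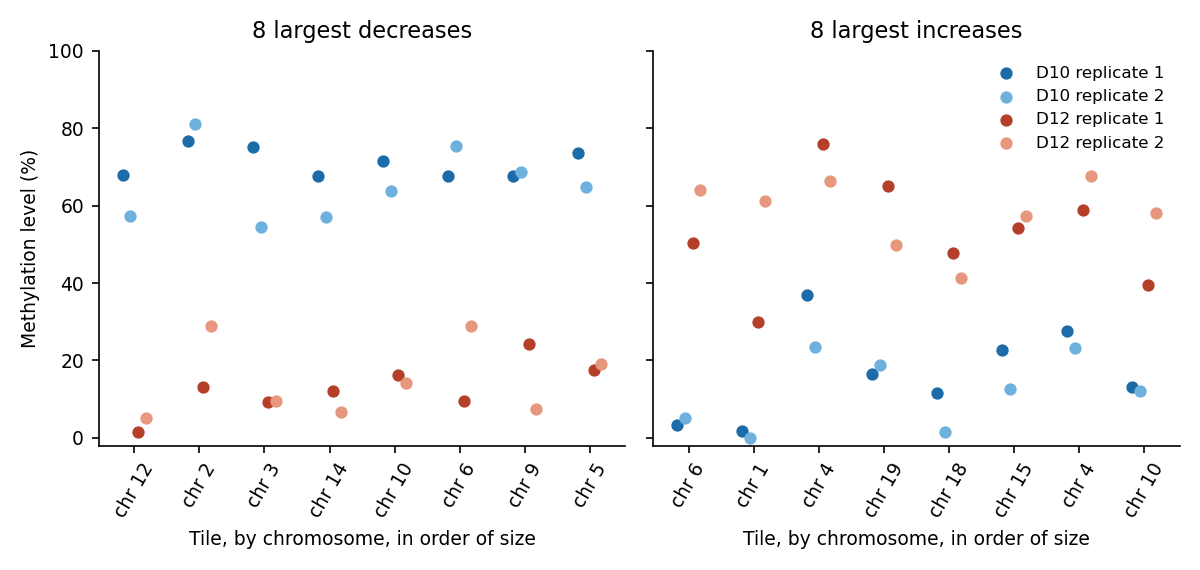
Methylation level (y axis, %) of the 8 called tiles with the largest decrease (left) and the 8 with the largest increase (right) in each D10 and D12 library. Tiles are in order of the size of the change and labelled by chromosome (x axis). The rule picked tiles whose D10 and D12 points do not overlap, and replicates of 1 group can lie far apart, as at 30.0% and 61.3% at D12 in the increase on chromosome 1.

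Some tiles still held methylation at D12. Of 18462 tiles at 40% or more in both D10 libraries, 3397 (18.4%) were at 40% or more in both D12 libraries. Of 2956 at 60% or more, 176 (5.95%) stayed there, and of 137 at 80% or more, 4. The D10 values chose these tiles, so the shares are descriptions. Among the 78268 tested tiles with at least 5 sites and 100 reads in each of the 4 libraries, the highest D12 mean was on chromosome 11, 19970001 to 19971000, with 93.7% and 93.5% at D10 and 88.2% and 96.5% at D12, after 97.7% at D0. The second highest of these, on chromosome 5, 93090001 to 93091000, had 81.5% and 79.5% at D10 and 73.4% and 100% at D12, and 27.8% in iPSCs. The first had kept nearly its whole fibroblast level through the course. The next 3 among these tiles, on chromosomes 12, 5 and 9, had D12 means of 77.5% to 77.9%. Tiles at 40% or more at D10 with the smallest change in the mean were less settled than that mean: the 5 closest to no change had D12 libraries at 33.6% and 46.9%, 44.3% and 38.2%, 44.2% and 54%, 36% and 48.8%, and 24.2% and 58.9%, around means of 40.3% to 49.1%.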

How the data were processed

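Genomic DNA was cut with MspI, ligated to methylated adapters, bisulfite-converted, amplified for 15 cycles and read at 150 bp, per the labels' protocols. The submitters' processing notes name fastp 0.20.1, Bismark 0.23.0, Bowtie2, methylKit and the build GRCm39, with no settings. Duplicate handling and the trimming of filled-in ends are not given there, and either could shift levels. Each deposited table lists coverage, a count of reads at the site, beside the percent of these reads that were C or T, per the file headers. The smallest coverage was 10 reads in every library, so a site with fewer reads is not listed. Coverage times percent gave whole methylated reads at each listed site (0 exceptions). A tile's level is the share of methylated reads among all reads of its common sites, and each strand counts as a site. In libraries of the other groups it covers those of these sites that the library lists. Levels per library were averaged over 2 libraries a group, and the level of a class of tiles or sites is the mean over its members.

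The test was edgeR 4.0.16 (glmQLFit and glmQLFTest, limma 3.58.1, R 4.3.3) on counts of methylated and unmethylated reads. The model had library effects, group coefficients of methylation, 1 dispersion for all tiles, all 16 libraries, 8 residual degrees of freedom, and Benjamini-Hochberg adjustment over all tested tiles. It was first run on simulated data with the same replicate spread in all groups, so that run could not check the use of a shared spread. Other values were computed with Python 3.11.15. Named tiles came from tested tiles with at least 5 sites and 100 reads in each of the 4 libraries: the 8 largest called decreases and 8 largest called increases without overlap, the 5 tiles at 40% or more at D10 with the smallest difference, the 5 of highest D12 mean, and the longest run of called tiles in each direction. CpG count is the number of distinct CpGs listed in any of the 16 libraries per tile. The members, classes and rules were chosen with earlier results of these data known. Alternatives were other coverage and site minimums, merged strands, other sets of libraries in the fit, a quasi-binomial model, a replicate block and each replicate left out. Those with D6 or D8 added, the quasi-binomial model on 4 libraries and the limit of 60 reads were chosen after seeing the data. The gene tables at hand belong to another build, so genes and sequences were not analysed here.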

Additional observations from a re-analysis of the deposited data

Results flagged for a closer look

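CpGs of the mitochondrial genome, which enter no comparison of tiles, read higher at D12 than in the fibroblast controls at the sites common to the 4 D10 and D12 libraries. The mean level of the 15 sites in common was 7.88% ± 0.143 (SD, n = 2), against 5.25% ± 0.0175 at D10 and 5.83% and 5.79% in the D0 libraries. Over all mitochondrial sites that each library lists, which differ between libraries, the level was 8.00% and 8.33% at D12. By the same measure other libraries were near that level or higher, with 10.5% and 7.89% at D8, 11.4% in D6 replicate 2, 30.5% in D4 replicate 1 and 7.86% in D0 replicate 2.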

How the results depend on the processing

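The direction of the mean and the excess of falls over rises held in each setting that called any tile, while the number of calls depended most on which libraries gave the spread. Lower and higher calls numbered 31292 and 1365 with all 16 libraries, 0 and 0 with D10 and D12 alone, 0 and 0 with D8 added, 9930 and 498 with D6 and D8, and 12413 and 781 in a quasi-binomial model on D10 and D12. In edgeR the fits without a call had 27148 and 2308, and 29891 and 2218, at an unadjusted p under 0.05. A minimum difference of 25 points left 4802 and 185, and at least 20 reads per site left 651 higher. Leaving out each library gave 22621 to 27238 lower and 1213 to 1507 higher tiles and a mean difference of -6.03 to -5.55 points. The mean difference, -5.79 points, was -7.56 at sites of at least 20 reads, -10.9 at 60, -7.04 at sites common to all libraries, -1.27 over all sites each library lists, -4.96 with strands merged, -7.13 over tiles and -7.65 with reads pooled. The change of low tiles, 1.03, was 1.78 under 5%, 1.44 when chosen by D10 replicate 2, 1.89 by D8 and 0.479 at 20 reads. Classes by the D0 level gave 2.17, 2.44 and -11.2 for 0 to 5, 20 to 30 and 60 to 100%, against 1.71, -4.20 and -15.3 by D8, so the middle class reversed. Classes by D10 replicate 1 gave -7.49 and -17.8 for the upper 2 of these, and classes by replicate 2 gave 2.20, -6.93 and -17.2. The cause of these shifts was not tested.

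No difference between replicate numbers was shared by D10 and D12: the correlation of replicate 1 minus replicate 2 between them over tiles was -0.00463. This value cannot show whether libraries of the same number were paired. A fit with a replicate block called 30552 lower and 1297 higher tiles, and each of the 16 named calls held. The median reads in the thinnest library were 278 for tiles called lower, 182 for tiles called higher, 187 for tiles not called and 63 for tiles not tested.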

Other observations

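Tiles grouped by their fibroblast level, in place of the D8 level, gave a higher crossing point between rise and fall. Tiles at 10 to 20% at D0 (6068) went from 11.1% and 11.4% at D10 to 14.9% and 14.9% at D12, a D12 level close to the 14.4% of D0. The classes on either side were not close. Tiles at 5 to 10% at D0 had 7.35% at D0 and 10.9% at D12, and those at 20 to 30% had 24.9% and 16.3%. Tiles at 30 to 40% at D0 (4979) differed by -0.371 points (SE 0.285). Of the tested tiles at 60 to 100% at D0, 41% were called lower and 0.404% higher, and at 20 to 30% these shares were 2.08% and 5.23%.

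The paths of tiles between levels were wide. Of tiles with a D10 mean of 40 to 60%, 37.8% were at 20 to 30% at D12, 31.3% at 30 to 40% and 16.9% at 40 to 60%. Of tiles at 20 to 30%, 53.2% were at 10 to 20% and 25% had not left their class. These shares take the D10 value both as the class and as the start, so they hold some return to the mean.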
